A study of Mus musculus with 6 samples.

Results

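The WANCY cluster is the group of 5 mitochondrial tRNA genes for tryptophan (mt-Tw), alanine (mt-Ta), asparagine (mt-Tn), cysteine (mt-Tc) and tyrosine (mt-Ty), named from the one-letter codes of those amino acids. These 5 of the 37 mitochondrial genes, and of the 22 mitochondrial tRNA genes, were taken by their annotated position and strand. The origin of light-strand replication lies inside the cluster, in a gap of 32 bases between mt-Tn and mt-Tc. Small RNA was sequenced in 3 libraries of pancreatic islets from Mrpp3WT mice and 3 from Mrpp3N434S mice, here called wild-type and mutant; the design text names 3 mice per genotype, all given a high-fat diet for 14 weeks. The labels give no age, sex or strain, do not tie a library to 1 animal and do not say whether islets were pooled; the p-values measure the spread between these samples. Since the deposited files cover the mitochondrial chromosome alone, neither Mrpp3 itself nor markers of islet cells could be checked.

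Mammalian mitochondrial DNA is transcribed into long RNAs from both strands, and tRNAs that punctuate them are cut out at both ends. RNase P of mitochondria, whose nuclease is MRPP3, cuts at the 5′ end of a tRNA; ELAC2 cuts at the 3′ end, and CCA is then added. The other subunits of RNase P, MRPP1 and MRPP2, also methylate the purine at base 9 of mitochondrial tRNAs, and a methyl group on the base-pairing face can make reverse transcriptase stop or write another base.

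The sequences show the 2 features that the results turn on, so each is printed 5′ to 3′ in DNA letters, with base 9 and the anticodon in capitals. They come from the GENCODE transcripts of GRCm38 and were identical to the reference letters in the files.

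mt-Tw: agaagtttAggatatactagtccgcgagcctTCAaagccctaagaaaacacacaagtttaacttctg

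mt-Ta: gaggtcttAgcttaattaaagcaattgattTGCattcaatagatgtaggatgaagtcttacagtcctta

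mt-Tn: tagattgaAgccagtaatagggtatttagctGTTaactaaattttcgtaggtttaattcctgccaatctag

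mt-Tc: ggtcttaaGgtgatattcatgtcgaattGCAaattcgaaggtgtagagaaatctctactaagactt

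mt-Ty: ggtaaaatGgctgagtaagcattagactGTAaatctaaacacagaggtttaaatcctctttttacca

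On GRCm38, mt-Tw (ENSMUSG00000064346.1, chrM:4950-5016) is on the forward strand. The other 4 are on the reverse strand: mt-Ta (ENSMUSG00000064347.1) at chrM:5018-5086, mt-Tn (ENSMUSG00000064348.1) at chrM:5089-5159, mt-Tc (ENSMUSG00000064349.1) at chrM:5192-5257 and mt-Ty (ENSMUSG00000064350.1) at chrM:5260-5326. Their RNA runs from mt-Ty through mt-Tc, the origin and mt-Tn to mt-Ta. Each gene is a single noncoding exon, 66 to 71 bases long. Base 9 is A in mt-Tw, mt-Ta and mt-Tn and G in mt-Tc and mt-Ty. The gap is printed as reverse-strand RNA in DNA letters, with capitals for its bases in a 12-pair inverted repeat around a 13-base loop; 4 more bases of that repeat are the 3′ end of mt-Tc and 1 is the first base of mt-Tn.

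origin gap, the 32 bases between chrM:5089-5159 and chrM:5192-5257: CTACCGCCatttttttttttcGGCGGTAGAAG

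Base depth summed over the chromosome ranged from 3156759 to 4337045 per wild-type library and from 5461353 to 10923294 per mutant library. Most of the difference was on the forward strand: reverse-strand depth was 392550 to 589848 against 434381 to 620910. The 5 genes held 1.004% to 1.337% of all depth in wild-type and 0.603% to 0.678% in mutant libraries. That share does not overlap between the groups, but its denominator is the depth that differed, and the part of depth in the result was not tested. Divided by library totals, the median log2 difference of mutant minus wild-type over 34 genes was -0.43. How many other genes separate on this share was not computed. Depth is the number of reads over a base, and the highest depth of both strands in the cluster was 294 to 700 per library. Over the whole chromosome it was 7436 to 7756 in wild-type and 7997 to 8000 in mutant libraries. These mutant maxima nearly coincide although the mutant totals differ widely. Whether counted depth was capped there, which would lower the library totals and the deepest genes used for scaling, was not tested.

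mt-Tn and mt-Tc were the most covered members, followed in every library by mt-Ta, then mt-Ty and then mt-Tw. The mean unscaled depth of mt-Tn was 320, 177 and 205 reads per base in wild-type replicates 1 to 3 and 339, 217 and 149 in the mutant ones. For mt-Tc it was 267, 174 and 132 against 425, 169 and 206. mt-Tn was above mt-Tc in all wild-type libraries and in mutant replicate 2, and below it in mutant replicates 1 and 3, so the order of these neighbours did not hold across libraries. mt-Ta had 185, 120 and 109 against 220, 110 and 99.7. mt-Ty had 57.2, 28.8 and 38.8 against 76.8, 30.9 and 47.8. mt-Tw, the forward-strand member, had only 15.4, 8.15 and 10.6 against 19.9, 12.3 and 22.4. Among the 22 tRNA genes, mt-Tn and mt-Tc ranked 8th to 10th, mt-Ta 11th or 12th, mt-Ty 14th to 16th and mt-Tw 18th to 20th.

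**Figure D1:**
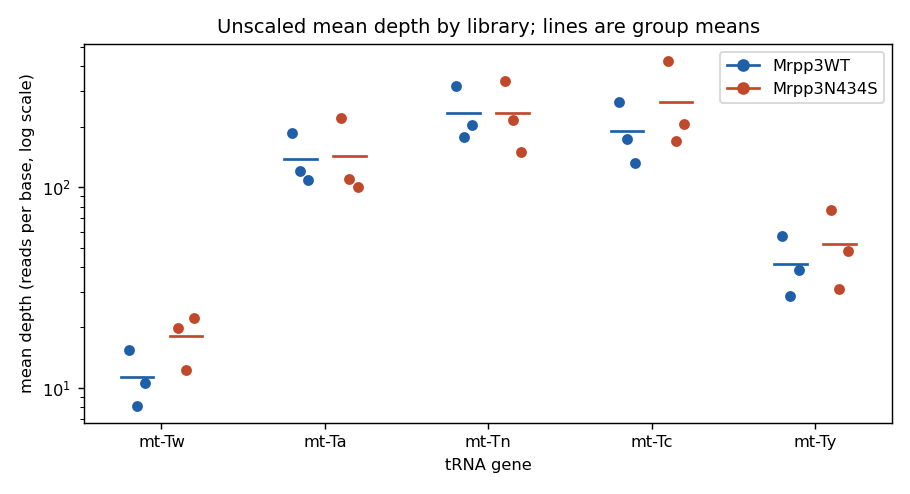
Mean unscaled depth (reads per base, log axis) of the 5 tRNA genes, 1 point per library, with a line at the group mean. The groups overlap in every gene, and mt-Tw lies lowest, between 8.15 and 22.4.

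No member passed the test of depth relative to other mitochondrial RNA (edgeR's quasi-likelihood test after TMM scaling over the 37 genes, Benjamini-Hochberg adjusted). Of 34 genes tested, 5 passed, 14.7% of them, and 13 had an unadjusted p under 0.05. After scaling, mt-Ta was at 164, 159 and 151 in wild-type and 135, 121 and 91.2 in mutant libraries. Those groups do not overlap, as in 12 of 34 genes (35.3%), and the log2 difference of mutant minus wild-type was -0.45 ± 0.22 (SE, n = 3 per group, adjusted p = 0.137). mt-Tn was at 284, 234 and 284 against 207, 238 and 136, a log2 difference of -0.46 ± 0.23 (n = 3 per group, adjusted p = 0.137). Without mutant replicate 3 these differences were -0.26 for mt-Ta and -0.20 for mt-Tn. mt-Ty (-0.18), mt-Tc (-0.03) and mt-Tw (0.20) had adjusted p-values of 0.640, 0.906 and 0.715. The members' median was -0.18, beside 0.07 over all 34 genes. In islet RNA as a whole, fewer cells of a type and less RNA per cell cannot be told apart.

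That result depends on the scale. Divided by library totals, which moved the median of all genes to -0.43, mt-Ta (-0.97, adjusted p = 0.00856) and mt-Tn (-0.99, adjusted p = 0.0210) passed as lower in the mutant, and the calls over all genes split into 8 lower and 1 higher, in place of 1 lower and 4 higher. Scaled to the summed rRNA genes, which moved the median to -0.69, mt-Tc (-0.82, adjusted p = 0.0185) and mt-Ty (-0.96, adjusted p = 0.0201) passed as well, and 16 genes were called, all lower. Scaled to the summed tRNA genes, where the median was 0.37, no member passed, 12 genes were called, all higher, mt-Ta and mt-Tn were at -0.15 and -0.17, and the differences of mt-Tc (0.27) and mt-Ty (0.13) turned positive.

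Shares within the cluster were compared by an exact permutation test, which cannot pass the threshold here, since its smallest two-sided p with 3 against 3 is 0.1. mt-Ta made up 22.5% ± 0.959 (SD, n = 3) of the summed mean depth of the 5 genes in wild-type and 19.9% ± 0.795 (SD, n = 3) in mutant libraries (exact p = 0.1, adjusted over the 5 genes 0.375). Its groups do not overlap, while those of every other member do. The share of mt-Tc was 30.8% ± 3.84 against 36.7% ± 4.55, and that of mt-Tn 38.1% ± 3.23 against 33.3% ± 6.15 (SD, n = 3; exact p = 0.3 for each).

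The genes outside the cluster whose scaled depth varied most like the mean of the 4 reverse-strand members over the 6 libraries were mt-Te, mt-Th and mt-Ts1, with root-mean-square distances of 0.064, 0.128 and 0.187 on the centred log2 scale. mt-Te and mt-Ts1 are read from the reverse strand too. Of the 4 other reverse-strand tRNAs, none passed the depth test: mt-Tq was at -0.32, mt-Te at -0.29, mt-Ts1 at -0.12 and mt-Tp at 0.82 (lowest adjusted p = 0.0894, mt-Tp).

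Each member had a coverage profile of its own along the tRNA. mt-Ta stepped up just after base 9. Its depth at base 9 was 170, 110 and 93 reads in wild-type and 201, 103 and 92 in mutant libraries, and at base 10 it was 223, 132 and 129 against 244, 125 and 110. From bases 7 to 9 it was flat to within 1 read. The step was 18 to 53 reads, and a gradual rise of 10 to 37 more reads led from base 10 to the highest depth. At the other end mt-Ta fell away before its last base, which had 2.54% to 11.1% of the highest depth in the gene, lower than in any other member.

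mt-Tc had most of its new depth inside the tRNA: bases 10 to 25 gave 49.0% to 56.1% of all gains in wild-type and 61.5% to 69.0% in mutant libraries. In mt-Tn those bases gave 11.8% to 19.5% against 23.2% to 41.0%. In mt-Tw they gave 7.69% to 15.4% against 18.8% to 34.4%, on gains of only 2, 1 and 2 reads against 9, 3 and 11. None of these 3 ranges overlaps between the groups, as in 4 of the 19 tRNAs with a mean depth of at least 10 (21.1%). In mt-Ta (24.3% to 32.3% against 19.7% to 25%) and mt-Ty (46.0% to 55% against 53.2% to 61.3%) the groups overlap. This measure was chosen after the profiles had been seen and was not tested. mt-Tn also lost depth past its anticodon, which ends at base 34. From base 38 to base 39, for example, it went from 384 to 353 in wild-type replicate 1 and from 441 to 371 in mutant replicate 1. mt-Ty stepped down right after the last base of its anticodon: depth at base 31 was 71, 40 and 51 in wild-type and 98, 44 and 63 in mutant libraries, and at base 32 it was 63, 32 and 45 against 90, 35 and 56. The step had the same direction in all 6 libraries.

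**Figure D2:**
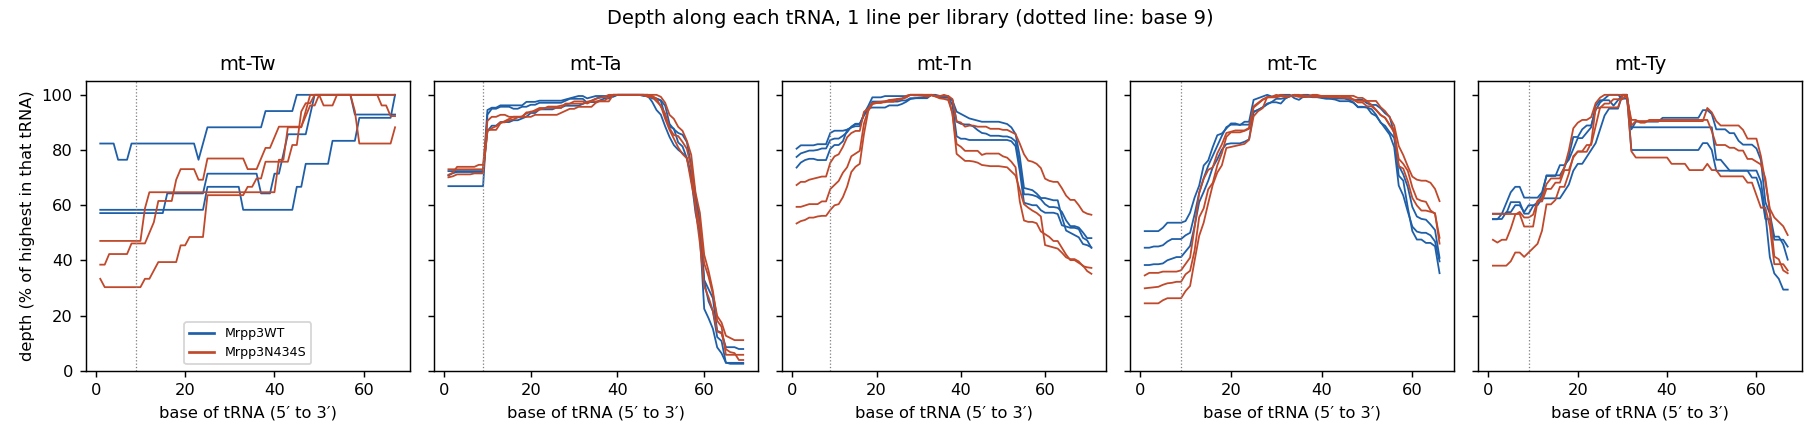
Depth at each base as a percentage of the highest depth in that tRNA, 1 line per library, with a dotted line at base 9. mt-Ta steps up right after base 9 and falls to 2.54% to 11.1% at its last base. mt-Tn, mt-Tc and mt-Tw start lower in the mutant libraries. On the first 5 bases none of 19 tRNAs passed, and in 5 the groups did not overlap (26.3%).

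The first 20 bases were compared with the last 20, a ratio within each tRNA that no library scaling touches. Of 19 tRNAs tested, 2 passed (10.5%), both lower in the mutant, and no member was among them. All 5 members had a negative difference, as did 15 of the 19. The ratio in mt-Tc was 0.723, 0.834 and 0.879 in wild-type and 0.612, 0.686 and 0.520 in mutant libraries. Those groups do not overlap, as in 5 of 19 tRNAs (26.3%), and the log2 difference was -0.41 ± 0.13 (SE, edgeR adjusted p = 0.0744, n = 3 per group). mt-Tc passed with 10 bases at each end (-0.81, adjusted p = 0.0181) and without mutant replicate 2 (adjusted p = 0.0365). It did not pass under any other alternative run: the difference was -0.22 with 30 bases (adjusted p = 0.330) and -0.42 with DESeq2 (adjusted p = 0.370), the highest adjusted p. mt-Tw went from 0.815, 0.683 and 0.613 to 0.530, 0.604 and 0.349, again without overlap (log2 difference -0.61, adjusted p = 0.443), on the few reads it had. mt-Ta (-0.11), mt-Tn (-0.13) and mt-Ty (-0.16) had adjusted p-values of 0.590 to 0.726.

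A second measure, chosen after the profiles had been seen, was the mean depth of the first 5 bases as a percentage of the highest depth in the tRNA. None of 19 tRNAs passed (0%), 4 had an unadjusted p under 0.05, and in 5 the groups did not overlap (26.3%), mt-Tn, mt-Tc and mt-Tw among them. mt-Tn had 79.0%, 75.8% and 81.5% in wild-type and 54.7%, 68.6% and 59.9% in mutant libraries (log2 difference -0.39 ± 0.10, SE, edgeR adjusted p = 0.0742, n = 3 per group). mt-Tc had 38.6%, 45.0% and 50.9% against 30.4%, 35.4% and 24.7% (-0.54 ± 0.15, adjusted p = 0.0742, n = 3 per group). mt-Ta stood at 70.3% ± 2.98 against 72.2% ± 1.24 (SD, n = 3), with a log2 difference of 0.03 (edgeR adjusted p = 0.890). The fit treats the first 5 bases and the highest depth as separate counts, although reads can cover both.

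**Figure D3:**
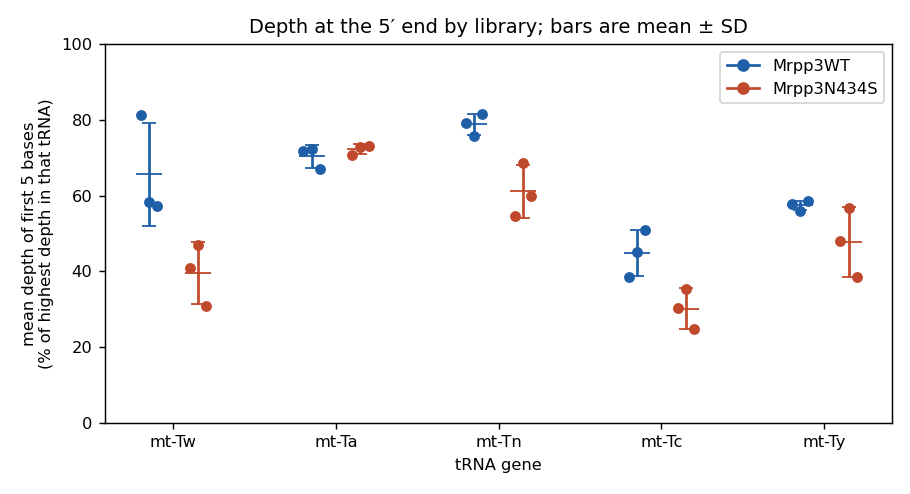
Mean depth of the first 5 bases as a percentage of the highest depth in that tRNA, 1 point per library, with the mean and SD of each group. All mutant points of mt-Tn (54.7% to 68.6%) lie below all wild-type points (75.8% to 81.5%), while those of mt-Ta mix. None of 19 tRNAs passed on this measure, and in 5 the groups did not overlap (26.3%).

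Depth rose steeply at the 5′ ends of mt-Tn and mt-Ta, and less so in mt-Tc. In mt-Ty it rose in every library but wild-type replicate 2, where it fell from 28 to 22 reads. The base before mt-Tn had 7 to 11 reads and its first base 120 to 303, so depth at the base before was 3.30% to 6.67% of that at base 1. Depth does not show whether reads at the base before ran on into the tRNA or ended there. In mt-Ta the percentage was 4.57% to 10.9%, in mt-Tc 6.06% to 22.2% and in mt-Ty 25% to 127%. In mt-Tw the percentage was 0% to 25%, on 7 to 14 reads at base 1. No leader, the 10 bases upstream of a tRNA, passed among 11 tested (edgeR, 0%; 0 had an unadjusted p under 0.05). For mt-Ta, mt-Tc and mt-Ty the adjusted p was 0.999. Of the 10 leader bases, 8 lie in the neighbouring tRNA for mt-Ta (in mt-Tn) and for mt-Tc (in mt-Ty), so their depth is shared. With mean depths of 9.15 and 2.83, the leaders of mt-Tn and mt-Tw were too shallow to be tested. When the leader was cut to the 1 base before the tRNA, also chosen after the data were seen, the ratio of that base to the mean depth of mt-Tc was 0.0824, 0.127 and 0.129 in wild-type and 0.0236, 0.0649 and 0.0631 in mutant libraries. The groups do not overlap, as in 1 of 11 tRNAs (9.09%), but the difference did not pass (log2 -1.27 ± 0.48, SE, edgeR adjusted p = 0.253, n = 3 per group).

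Of 20 trailers, the 10 bases downstream, 2 passed (10%), both lower in the mutant, and 1 was that of mt-Tw. Its depth was 452, 343 and 555 in wild-type and 342, 223 and 170 in mutant libraries, far above the depth of mt-Tw itself. Depth jumped from 12 to 33 reads at the last base of mt-Tw to 155 to 502 at the next base, so most of these reads began there. They are forward-strand reads opposite mt-Ta, not an extension of mt-Tw. The ratio to mt-Tw fell by 1.57 on the log2 scale (SE 0.41, edgeR adjusted p = 0.0147, n = 3 per group). It did not pass without wild-type replicate 2 (-1.53, adjusted p = 0.0600) or wild-type replicate 3 (-1.39, adjusted p = 0.181), where the difference had nearly the same size. The trailers of mt-Ta, mt-Tn, mt-Tc and mt-Ty had log2 differences of -0.26, 0.04, 0.44 and -0.41 and did not pass. Of the 10 trailer bases, 8 lie in mt-Ta for mt-Tn and 8 in mt-Tc for mt-Ty, so these values largely compare neighbouring tRNAs.

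Just past the 3′ end, mt-Tc and mt-Ta carried letters that match the added CCA tail and not the genome, with positions counted from the first base of the tRNA. The genome itself has C right after mt-Tc, and that base kept 82.4% to 95.8% of the depth of the last base. At the second base past the end, 34 of 142 reads had C in place of the genome's U (U68C, 23.9%), 17 of them among the 40 reads of mutant replicate 3. After mt-Ta, U70C was in 19 of 87 reads (21.8%), but depth there exceeded that of the last base of mt-Ta in 5 of 6 libraries (55 reads in all at the last base), so at least 34 of the 87 reads began past the tRNA. No C was read at the first base after mt-Tn, mt-Ty or mt-Tw, in 272, 73 and 1878 reads. Those after mt-Tw are mostly reads that began there. The genome shares fewer letters with CCA after these 3 genes than after mt-Tc or mt-Ta. How unmatched letters at read ends were aligned was not given, so a tail there could have been dropped. The absence of C therefore cannot show that these tRNAs lacked CCA.

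Base 9 was read with other letters at very different rates among the members, and no rate passed the test between the genotypes. Of 36 tRNA bases tested over all tRNAs (those with 50 or more reads in all 6 libraries and a mean mismatch of 1% or more), none passed (edgeR, 0%); 4 had an unadjusted p under 0.05 (11.1%). mt-Tn was mismatched in 78.6%, 72.3% and 72.6% of reads in wild-type and 73.8%, 77.0% and 68.4% in mutant libraries, at depths of 133 to 327. Those groups overlap, and the log2 difference of the odds was -0.11 (95% interval -0.66 to 0.45, adjusted p = 0.818). mt-Ta was mismatched in 20%, 18.2% and 21.5% against 15.9%, 12.6% and 18.5% (log2 difference -0.42, 95% interval -1.04 to 0.21, adjusted p = 0.596). In mt-Tc, with G at base 9, the rates were 0.699%, 1.89% and 2.27% against 3.93%, 2.53% and 2.82%. The groups do not overlap, as in 5 of the 36 bases (13.9%), but each mutant value rests on 2 to 7 mismatched reads (log2 difference 1.13, adjusted p = 0.554).

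The letters differed too. In mt-Tn, 80.9% of the 984 mismatched reads were A9G and 18.4% A9U. In mt-Ta, 54.4% of 136 were A9G and 41.2% A9U. mt-Ty, with G at base 9, had 37 mismatched reads over the 6 libraries, 21 of them G9U, at a depth of 23 to 55, too low for the test; its rates were 17.1%, 12.5% and 12.5% against 21.8%, 30.4% and 14.8%. mt-Tw had no mismatched read at base 9, but its depth of 7 to 14 allows a share of up to 21.4% to 42.9% (3 counts of the total, counting error only), and the exact 95% intervals drawn in the plot of base 9 end at 23.2% to 41.0%. Within the reverse-strand members, then, mt-Ty and mt-Tc share the letter G and had rates from 12.5% to 30.4% and from 0.699% to 3.93%.

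**Figure D4:**
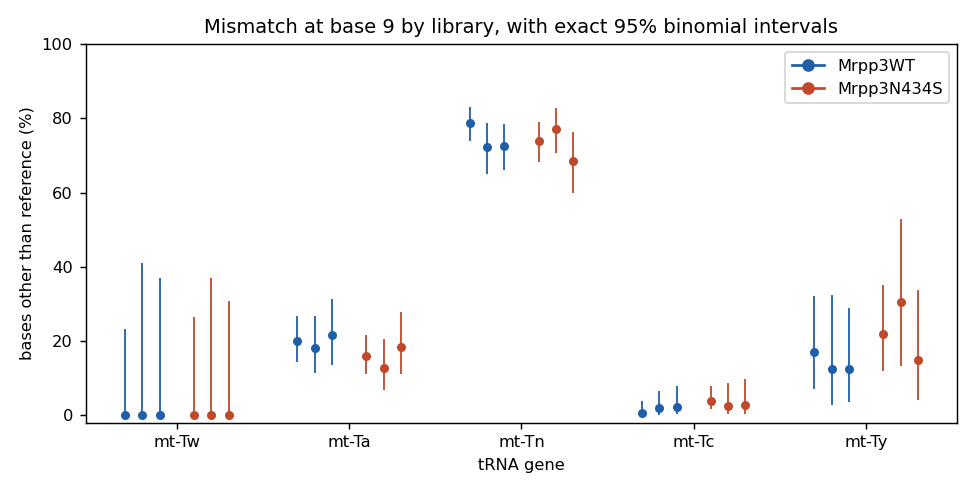
Share of bases other than the reference at base 9, 1 point per library, with exact 95% binomial intervals. mt-Tn lies between 68.4% and 78.6% in both groups, and the intervals of mt-Tw reach from 0 to 41.0%.

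Few other well-covered bases of the members were read with another letter. Of 340 bases, 196 had 50 or more reads in all 6 libraries: 59 in mt-Ta, all 71 in mt-Tn, all 66 in mt-Tc and none in mt-Tw or mt-Ty. Besides base 9, among these 196 bases, base 10 of mt-Ta alone reached a mean mismatch of 1%, at 1.42%, with 1 to 3 mismatched reads per library (log2 difference -0.63, edgeR adjusted p = 0.685). The next highest were base 47 of mt-Tc (0.961%), bases 34 (0.924%) and 31 (0.875%) of mt-Ta, and base 56 of mt-Tn (0.817%). Then came bases 42 (0.756%), 19 (0.697%), 5 (0.669%) and 32 (0.656%) of mt-Tc and base 8 of mt-Ta (0.691%). The median over the other bases was 0.210% in mt-Ta, 0.178% in mt-Tn and 0.247% in mt-Tc. Below that depth, bases 1, 2 and 3 of mt-Ty (22 to 47 reads per library) were mismatched in all 6 libraries, at 4.17% to 8%, in 11 reads each over the 6 libraries. A was read in 11, 10 and 11 of these. They were singled out after their values were seen and not tested.

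Reverse-strand depth was low over the light-strand origin in all 6 libraries. Its mean over the 32 bases was 13.1, 9.63 and 7.81 reads in wild-type and 19.6, 8.94 and 14.8 in mutant libraries. This was 4.46% to 5.49% of the mean depth of mt-Tn and mt-Tc in wild-type and 4.63% to 8.33% in mutant libraries. The log2 ratio was higher by 0.25 in the mutant (-4.30 ± 0.16 against -4.05 ± 0.44, SD, n = 3, exact permutation p = 0.6). The base right after mt-Tc had 48 to 245 reads and weighed on that mean. Over the gap without the 2 bases next to mt-Tc, an alternative chosen after the data were seen, depth was 3.21% to 4.03% against 2.94% to 5.15%, and the log2 difference was -0.03 (exact p = 0.9).

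Depth fell to 2 to 4 reads at its lowest base of the gap in each library, 5 to 8 bases after mt-Tc, and was 7 to 11 reads at the base before mt-Tn. The forward strand was more covered over the same bases, at a mean of 53.8, 43.5 and 53.6 reads in wild-type and 32.5, 26.5 and 15.3 in mutant libraries. All mutant values lie below all wild-type values, and the mutant libraries had more forward-strand depth in all. This difference is in unscaled depth and was not tested. The share of other regions that separate in this way was not computed. For scaled gene depth, the groups did not overlap in 12 of 34 genes (35.3%). Read length cannot be seen directly in base depth. On the forward strand, an estimate from depth gave 51 to 249 reads per library that began just after mt-Tw and covered 81 bases or more. It counts only net rises in depth as new reads. Reads that began where others ended would lower it, so it is not a lower bound.

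**Figure D5:**
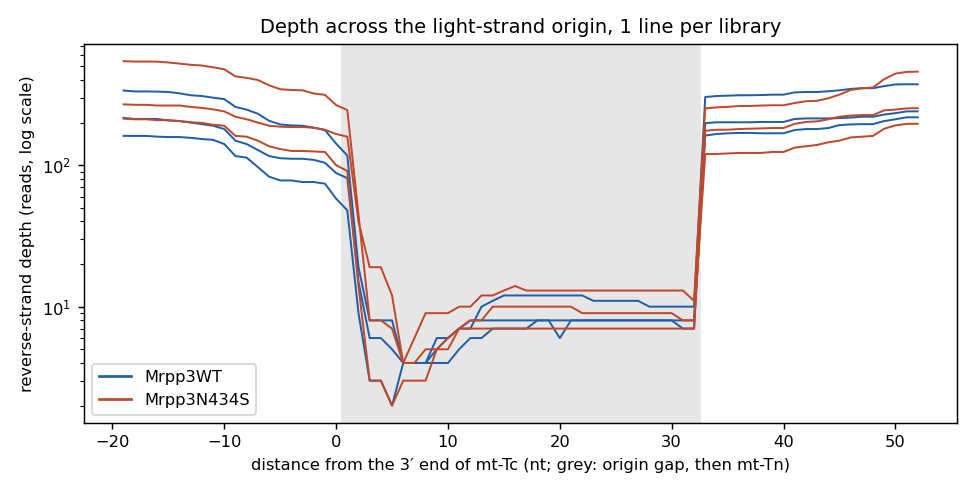
Reverse-strand depth (reads, log axis) from the last 20 bases of mt-Tc across the origin gap (grey) into the first 20 bases of mt-Tn, 1 line per library. Depth falls from 48 to 245 reads at the first gap base to 2 to 4 reads, and jumps to 120 to 303 at the first base of mt-Tn.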

How the data were processed

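Small RNA libraries (Illumina TruSeq) of islet RNA were made by the authors, per the labels' protocols. Trim Galore, cutadapt, FastQC, STAR and GRCm38.p6 are named in the submitters' processing notes; versions, order, read length, base counting and quality filter were not given in the sources used here. Unscaled counts of each base letter (N included) per strand and position of the mitochondrial chromosome were deposited by the authors, per the file headers; a position absent from a file was taken as 0. A further deposited table of position 9 counts was not used, since its headings match no label.

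Depth was the sum of A, C, G and T on the gene's strand, and its rounded mean per gene was tested with edgeR 4.0.16 (R 4.3.3; quasi-likelihood, TMM over the 37 genes, then a mean of at least 10). Ratios (mismatched against reference reads, first against last 20 bases, 10-base flanks against the tRNA) were tested in the same tool with a term per library. Mismatch needed a depth of 50 in every library; the other ratios a mean of 10. The threshold was an adjusted p of 0.05. Shares and the origin gap (0.5 added before the log) had exact two-sided permutation tests (scipy 1.17.1). Intervals of single shares are exact 95% binomial and cover counting error only. DESeq2 1.42.0 and limma 3.58.1 were alternatives. All pairs of libraries differed by more than counting noise (chi-square per degree of freedom of 3.24 or more over genes).

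All 5 members were named in each comparison, with base 9 and the 10 other well-covered bases of highest mismatch; non-members were given as counts, except the other reverse-strand tRNAs and the 3 genes most alike. Members, lists and rules were chosen with earlier results of these data known. The first-5-base measure, 1-base flanks, tail letters, gains by base, anticodon steps, the shortened origin gap, the spanning reads and 3 other versions of the depth fit were chosen after seeing the data. Several versions of the TMM and edgeR settings were run and their counts of called genes seen before the written design was kept as the reported one.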

Additional observations from a re-analysis of the deposited data

How the results depend on the processing

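The number of genes called for depth depended strongly on the processing. It was 5 as reported, 9 with library totals, 12 scaled to the tRNA genes, 16 scaled to the rRNA genes, 2 with DESeq2, 8 with limma, and 0 to 12 with each library left out in turn. Another 3 versions were added after the data were seen: TMM after the filter gave 2, the newer edgeR fit (legacy = FALSE) 7, and both together 5. No member passed in these 3, although with TMM after the filter mt-Ta was at -0.55 and mt-Tn at -0.56 (adjusted p = 0.116 for each). The difference of mt-Tw turned to -0.31 with library totals and -0.57 with rRNA scaling, and that of mt-Tc to 0.27 and mt-Ty to 0.13 with tRNA scaling. With 1 library left out, mt-Tw ranged from -0.019 to 0.37, mt-Tc from -0.21 to 0.097 (0.010 without wild-type replicate 2, 0.051 without mutant replicate 2, 0.087 without mutant replicate 3), the mismatch at base 9 of mt-Tn from -0.24 to 0.068, the leader of mt-Ta from -0.33 to 0.063, the trailer of mt-Tn from -0.066 to 0.16 and the share of mt-Ty from -0.33 to 1.35 points. The count of called mismatched bases ranged from 0 to 1, of 5′ to 3′ ratios from 0 to 4 and of trailers from 0 to 2. The 5′ to 3′ count, 2 as reported, was 0 with limma and 0 with the first 5 bases, where mt-Ta turned to 0.032. The trailer count, 2 as reported, was 1 with limma, with DESeq2 and with 1-base flanks; mt-Tn turned to -0.00040 with 5 bases and -0.39 with 1 base. The origin gap difference was -0.030 without the 2 bases next to mt-Tc and -0.0048 to 0.40 with 1 library left out. The cause of these changes was not tested.

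Same-numbered libraries did not vary together (correlations of -0.03, -0.25 and 0.23 over 34 genes), so the numbers were not taken to pair the samples. With the number as a replicate block, 5 genes were called for depth, 1 tRNA for the 5′ to 3′ ratio and 2 trailers, no mismatched base and no leader, and exact within-pair sign flips gave p = 0.75 for the origin gap, with a smallest possible p of 0.25. No member's call changed with the block. Depth limits mt-Tw and mt-Ty most: no base of either reached 50 reads in every library.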
